A study of Homo sapiens with 11 samples.

Results

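Described here are the 10 genes that encode the transforming growth factor beta (TGF-beta) ligands (TGFB1, TGFB2 and TGFB3), their receptors (TGFBR1, TGFBR2 and TGFBR3) and the latent TGF-beta binding proteins (LTBP1, LTBP2, LTBP3 and LTBP4). They were taken by symbol from a count table of 35303 genes, and all 10 were found, kept by the filter on low counts and tested among 16117 genes. The counts came from LX-2, an immortalised human hepatic stellate cell line labelled wild type. Cells were given HIV-1BaL (multiplicity of infection 0.1) together with lipoteichoic acid (LTA, from the cell wall of Gram-positive bacteria) at 1 µg/ml (HIV-1+LTA), the same virus alone (HIV-1), or PBS, which the series' design text calls medium. RNA was taken at 24 h, and each group had 3 libraries, 1 from each of the batches labelled 1, 2 and 3, so every batch holds all 3 treatments. All libraries come from 1 cell line, no group had LTA without virus, and the labels do not say whether the batches were separate cultures, so p-values reflect library-to-library spread alone, and that spread may be technical.

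TGF-beta is the best known fibrogenic cytokine of the liver, and stellate cells both release it and respond to it by making scar matrix. The ligands are secreted bound to their own propeptide, usually held in the matrix by an LTBP, and must be freed from this latent complex before they can signal. Free ligand joins the type II receptor TGFBR2 to the type I receptor TGFBR1, whose kinase phosphorylates SMAD2 and SMAD3. TGFBR3 (betaglycan) is a co-receptor with no kinase that presents ligand, above all TGF-beta2, to TGFBR2. The LTBPs are not alike: LTBP1 and LTBP3 bind the latent ligands, LTBP4 binds latent TGF-beta1 weakly and helps to assemble elastic fibres, and LTBP2 is a microfibril protein that does not bind latent TGF-beta.

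The sequences just upstream of the start of LTBP4, TGFB2 and TGFBR3 are printed because LTBP4 and TGFB2 showed the largest differences in opposite directions with HIV-1+LTA and TGFBR3 the largest between batches. They are the 250 bases before a transcription start in RefSeq (GRCh38.p14), and capitals mark CAGA boxes, the short SMAD-binding element (CAGAC, or GTCTG on the other strand), and GC boxes (GGGCGG or CCGCCC), with overlapping copies counted separately.
LTBP4, upstream start, chr19:40592916-40593165, + strand: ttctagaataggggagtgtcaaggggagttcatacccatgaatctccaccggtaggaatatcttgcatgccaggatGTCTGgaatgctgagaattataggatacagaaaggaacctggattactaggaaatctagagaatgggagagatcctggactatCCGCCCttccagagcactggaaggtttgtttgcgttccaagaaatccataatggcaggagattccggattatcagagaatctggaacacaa
LTBP4, downstream start, chr19:40601119-40601368, + strand: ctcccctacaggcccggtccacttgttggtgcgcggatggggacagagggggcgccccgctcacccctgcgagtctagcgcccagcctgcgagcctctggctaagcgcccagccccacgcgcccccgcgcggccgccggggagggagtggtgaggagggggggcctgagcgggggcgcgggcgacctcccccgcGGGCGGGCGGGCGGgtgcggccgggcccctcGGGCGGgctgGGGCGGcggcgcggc
TGFB2, chr1:218345086-218345335, + strand: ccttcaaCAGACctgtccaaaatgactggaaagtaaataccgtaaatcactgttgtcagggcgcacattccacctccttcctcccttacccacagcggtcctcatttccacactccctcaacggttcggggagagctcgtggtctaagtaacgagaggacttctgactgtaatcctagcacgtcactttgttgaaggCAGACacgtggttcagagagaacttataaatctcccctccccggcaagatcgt
TGFBR3, chr1:91886152-91886401, - strand: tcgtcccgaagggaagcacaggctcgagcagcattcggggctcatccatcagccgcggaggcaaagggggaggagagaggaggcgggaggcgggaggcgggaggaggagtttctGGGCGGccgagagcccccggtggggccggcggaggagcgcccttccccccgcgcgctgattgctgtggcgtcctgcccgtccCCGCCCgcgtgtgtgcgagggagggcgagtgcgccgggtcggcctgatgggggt
The LTBP4 starts differ, with 1 CAGA box and 1 GC box in the upstream window, whose GC content is 45.2%, and no CAGA box but 5 GC boxes in the downstream window, whose GC content is 81.6%. TGFB2 has 2 CAGA boxes and no GC box, and TGFBR3 has 2 GC boxes and no CAGA box. RefSeq lists 23 windows for the 10 genes, of which 10 hold a CAGA box and 12 a GC box, while 38% and 42.6% of all 35116 windows of this length hold them. Gene counts do not show which start was used, so these matches describe the letters of the windows alone.

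The libraries held 50.6 to 90.6 M counts. Batch 3 stood apart from batches 1 and 2 in every treatment, along a first principal component that held 90.4% of the variance. Of 17 stellate cell markers 14 were above 1 CPM (counts per M counts of the library's effective size) in each group, while LRAT, the retinol-esterifying enzyme of quiescent stellate cells, was at 0.00618 CPM on average. None of 8 hepatocyte markers reached 1 CPM in any group. Of 5 cholangiocyte and epithelial markers SOX9 (26.7 CPM on average) and KRT7 (4.87 CPM) were above 1 CPM, and the list summed to 23.4 to 38.8 CPM with HIV-1+LTA, 29.0 to 37.99 CPM with HIV-1 and 26.9 to 33.7 CPM with PBS. TEK (6.32 CPM) was the only one of 7 endothelial markers above 1 CPM, and LYVE1 had no count. In bulk RNA, fewer cells that express a gene cannot be told apart from less of its RNA per cell.

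Corrected for the length of the principal (MANE Select) transcript, TGFB2 was the highest of the 10 genes, with a median of 37.9 CPM per kb over the 9 libraries and a range of 21.98 to 61.25. TGFBR1 followed at 35.9 and TGFBR2 at 29.3 CPM per kb. TGFB2 was above TGFBR1 in only 7 of 9 libraries and their ranges overlapped, whereas TGFBR1 was above TGFBR2 in 9 of 9 although their ranges over all libraries also overlapped. TGFB1, the isoform most often studied in liver fibrosis, came next at 13.7 CPM per kb, below TGFBR2 and above LTBP3 in every library with no overlap of ranges. LTBP3 had a median of 7.02 CPM per kb, LTBP4 3.34, LTBP1 1.95, LTBP2 1.49, TGFBR3 0.835 and TGFB3 0.540. The order of LTBP4 over LTBP1, and of LTBP2 over TGFBR3, held in 6 of 9 libraries. These were the libraries of batches 1 and 2, and both orders were reversed in every library of batch 3. By mean rather than median level, LTBP4 (3.40 CPM per kb) was above LTBP1 (2.75), but TGFBR3 (1.55) was above LTBP2 (1.52). With all annotated exons merged as the gene length, the means put LTBP1 (2.43) above LTBP4 (2.08) and LTBP2 (1.41) above TGFBR3 (1.14).

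On GRCh37, the build named hg19 in the submitters' processing notes, LTBP4 lies on chromosome 19 from 41098789 to 41135723 on the plus strand, and TGFB2 on chromosome 1 from 218518678 to 218617961 on the plus strand. TGFBR1 lies on chromosome 9 from 101866320 to 101916474 (plus strand), TGFBR3 on chromosome 1 from 92145900 to 92371892 (minus strand) and LTBP3 on chromosome 11 from 65306030 to 65326401 (minus strand). The strand setting of the counting is not given in the sources used here, so reads of overlapping genes may be shared. Exons of TGFB1 share 215 bases with HNRNPUL1 on the opposite strand. Exons of TGFB2 share 701 bases with the antisense gene TGFB2-AS1, which has no row in the count table, and 1371 bases with TGFB2-OT1 on the same strand, which was listed at 0 counts in all libraries.

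The joint difference made by virus and LTA is that of HIV-1+LTA over PBS. LTBP4 was higher and TGFB2 lower in cells with HIV-1+LTA in batches 2 and 3, by 0.55 and 0.90 for LTBP4 and by 0.95 and 0.98 for TGFB2 in log2 CPM, while in batch 1 LTBP4 was higher by 0.14 and TGFB2 was higher too, by 0.18. LTBP4 rose in DESeq2 with the replicate block (batch as a term), and none of the 10 genes was called in edgeR with the same block. A gene was called when its p-value, adjusted over all genes tested by the Benjamini-Hochberg method, was below 0.05.

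Among the ligands, TGFB2 had 236, 186 and 129 CPM in HIV-1+LTA replicates 1, 2 and 3, against 209, 359 and 255 CPM in the PBS replicates of the same batches. HIV-1+LTA replicates 2 and 3 were the lowest of the 9 libraries for TGFB2, while within batch 1 HIV-1+LTA was the highest library, so the groups overlapped. The edgeR log2 fold change of TGFB2 was -0.58 (SE 0.167, 95% interval -0.95 to -0.21), with an unadjusted p of 0.00496 and an adjusted p of 0.205. Within batches 1, 2 and 3 the difference in log2 CPM was 0.18, -0.95 and -0.98. TGFB1 had 38.1, 40.2 and 33.3 CPM with HIV-1+LTA, against 39.6, 38.2 and 30.5 CPM with PBS, a log2 fold change of 0.05 (SE 0.0616, 95% interval -0.09 to 0.18). TGFB3, the least abundant of the ligands in LX-2 cells, averaged 1.79 ± 0.219 CPM with HIV-1+LTA and 1.83 ± 0.282 CPM with PBS (SD, n = 3 each), and the 95% interval of its log2 fold change ran from -0.40 to 0.36. The summed ligand counts, at 276, 228 and 164 CPM with HIV-1+LTA against 249.9, 399.5 and 287 CPM with PBS, followed TGFB2.

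Of the receptors, the type I receptor TGFBR1 had 233, 238 and 189 CPM in HIV-1+LTA replicates 1, 2 and 3, against 228, 289.5 and 253 CPM with PBS. It was lower with HIV-1+LTA in batches 2 and 3 and nearly level in batch 1, and the groups overlapped. Its edgeR log2 fold change was -0.22 (SE 0.0723, adjusted p 0.207), and DESeq2 with the block gave -0.23 at an adjusted p of 0.0735. The type II receptor TGFBR2 averaged 133 ± 18.0 CPM with HIV-1+LTA and 125 ± 21.5 CPM with PBS (SD, n = 3 each), with a log2 fold change of 0.10 (95% interval -0.02 to 0.22). The co-receptor TGFBR3 had 5.25, 7.41 and 21.2 CPM with HIV-1+LTA, against 5.30, 4.95 and 18.2 CPM with PBS. Its batch 3 libraries were the highest in each group, and the treatment difference within batches 1, 2 and 3 was -0.01, 0.58 and 0.21 in log2 CPM. Its log2 fold change of 0.26 (SE 0.106) had an adjusted p of 0.25 in edgeR.

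Among the latency proteins, LTBP4 had 17.4, 29.7 and 14.3 CPM in HIV-1+LTA replicates 1, 2 and 3, against 15.7, 20.3 and 7.64 CPM with PBS. HIV-1+LTA was above PBS in 3 of 3 batches, by 0.14, 0.55 and 0.90 in log2 CPM, although the groups overlapped because the batches lay at different levels. The edgeR log2 fold change was 0.51 (SE 0.115, 95% interval 0.26 to 0.77), which ranked LTBP4 at 41 of 16117 genes by p-value (unadjusted p 0.000853, adjusted p 0.205). DESeq2 with the block gave 0.51 (SE 0.121) at an adjusted p of 0.0129, the value that the authors' deposited table also lists for LTBP4. LTBP3, a carrier of latent TGF-beta, had 34.9, 40.9 and 37.3 CPM with HIV-1+LTA, against 33.9, 30.0 and 30.7 CPM with PBS. These groups did not overlap, although in batch 1 the difference was only 0.04, against 0.45 and 0.28 in batches 2 and 3, and its log2 fold change of 0.26 (SE 0.0768) had an adjusted p of 0.205 in edgeR and 0.102 in DESeq2. LTBP1 differed by -0.31, 0.15 and 0.45 within batches 1, 2 and 3 in log2 CPM, and LTBP2 by -0.155, 0.20 and 0.18. With batch 1 opposite to the others, their log2 fold changes over all batches were 0.11 (95% interval -0.16 to 0.38) for LTBP1 and 0.07 (95% interval -0.13 to 0.28) for LTBP2. All 4 LTBP genes summed to 73.5, 97.7 and 102.5 CPM with HIV-1+LTA, against 74.6, 74.3 and 77.8 CPM with PBS, so that the batch 1 sums were level.

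**Figure D1:**
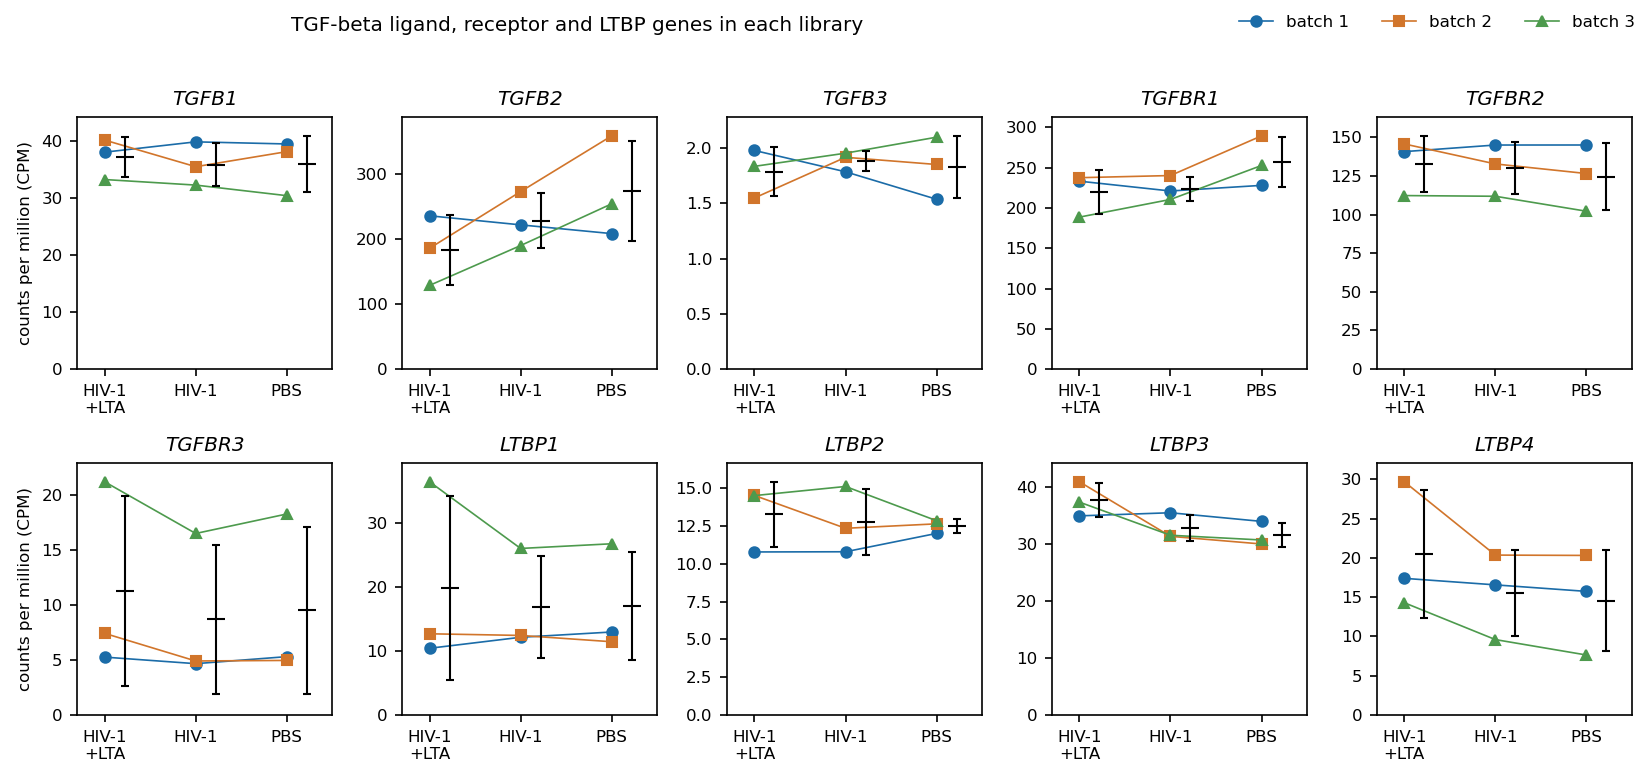
Level of each of the 10 genes in each library, in CPM on a linear axis from 0, with the HIV-1+LTA, HIV-1 and PBS groups from left to right; lines join the libraries of a batch, and the black bar beside each group is the mean with its SD (n = 3). In batches 2 and 3 LTBP4 is highest and TGFB2 lowest with HIV-1+LTA, whereas the batch 1 line of each is nearly flat.

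Across the 10 genes, edgeR with the block called 0 (0% of all 16117 genes), with 5 of the 10 and 16.8% of all genes at an unadjusted p below 0.05. DESeq2 with the block called 1 of the 10, LTBP4, against 1.18% of the 19990 genes it tested. Of these 19990 genes 7751 had no adjusted p and could not be called, so the share among the rest was higher. None of the 10 was called by limma-voom with the block. The median log2 fold change of the 10 genes was 0.08, against 0.00164 for all genes in edgeR, and their median absolute value was 0.17, against 0.11. The calls turned on single libraries. With HIV-1+LTA replicate 1 left out, edgeR called 5 of the 10 (16.2% of all genes): LTBP4 at 0.68, LTBP3 at 0.37 and TGFBR3 at 0.37 were higher, and TGFB2 at -0.88 and TGFBR1 at -0.32 were lower. Leaving out all of batch 1 called the same 5 genes (10.7% of all genes), with LTBP4 at 0.71 and TGFB2 at -0.96, and leaving out PBS replicate 1 called TGFB2 alone (0.551% of all genes), at -0.85. Keeping every gene with any count in the edgeR fit called 4 of the 10 (4.14% of all genes): TGFB2, TGFBR1, LTBP3 and LTBP4. The DESeq2 call of LTBP4 was lost in 7 of 12 refits without a library or a batch, its log2 fold change running from 0.35 without batch 3 to 0.70 without batch 1 and its adjusted p from 1.33e-07 to 1. A term for batch 1 by treatment, added after these values were seen, tested whether the difference in batch 1 departed from that in batches 2 and 3, which give the spread (2 residual degrees of freedom). The single library of each treatment in batch 1 is assumed to vary like the others. TGFB2 was the 1 gene of the 10 called (0.831% of all genes), its log2 fold change lying 1.14 higher in batch 1 than in batches 2 and 3 (SE 0.0914, adjusted p 0.000292 in edgeR). DESeq2 with the same term also called TGFB2 alone (0.89% of all genes). The corresponding value of LTBP4 was -0.55 (SE 0.174, unadjusted p 0.00874, adjusted p 0.242 in edgeR), and was not called.

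**Figure D2:**
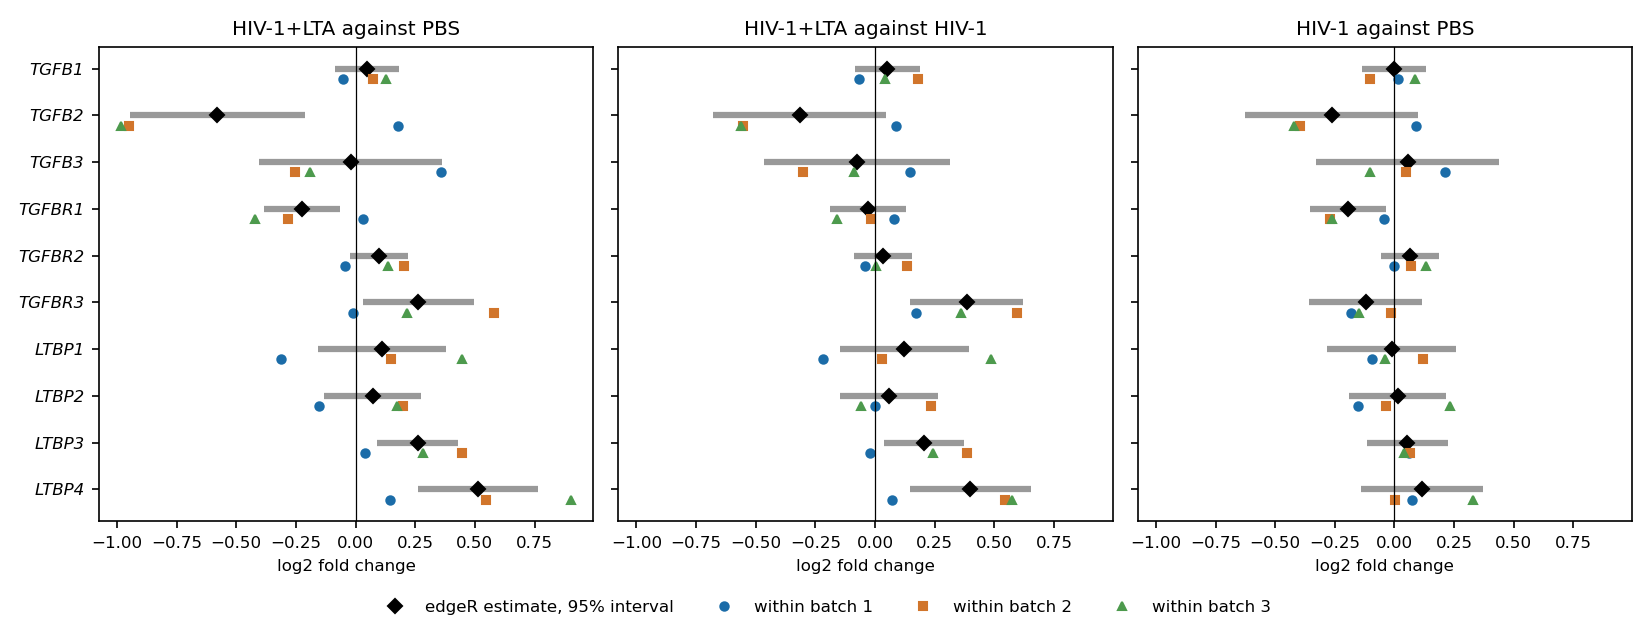
Log2 fold change of the 10 genes in the comparisons of HIV-1+LTA with PBS, HIV-1+LTA with HIV-1 and HIV-1 with PBS; diamonds and grey bars are the edgeR estimates with the replicate block and their 95% intervals, and coloured marks are the differences in log2 CPM within each batch. For HIV-1+LTA against PBS the intervals of LTBP4, LTBP3, TGFBR3, TGFBR1 and TGFB2 lie on 1 side of 0, and the batch 1 marks of these genes lie closest to 0.

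What LTA added to the virus is measured by HIV-1+LTA over HIV-1, which shares the HIV-1+LTA libraries with the comparison above. LTBP4 was again higher and rose in DESeq2 with the block, at 17.4, 29.7 and 14.3 CPM with HIV-1+LTA against 16.6, 20.4 and 9.60 CPM with HIV-1. The differences within batches 1, 2 and 3 were 0.07, 0.54 and 0.57 in log2 CPM, so HIV-1+LTA was above HIV-1 in 3 of 3 batches with little change in batch 1. The log2 fold change was 0.40 (SE 0.121) at an adjusted p of 0.0489 in DESeq2, and 0.40 (SE 0.116) at an adjusted p of 0.196 in edgeR. TGFBR3, at 5.25, 7.41 and 21.2 CPM with HIV-1+LTA against 4.66, 4.90 and 16.5 CPM with HIV-1, had a log2 fold change of 0.38 (SE 0.108, adjusted p 0.19 in edgeR and 0.0825 in DESeq2). It was higher with HIV-1+LTA in 3 of 3 batches, by 0.17, 0.59 and 0.36, and only TGFBR3 and LTBP4, 2 of the 10 genes, differed in the same direction in all 3 batches in this comparison. For HIV-1 against PBS, where none was called, 4 of the 10 did. The share of all genes that did so was not counted, so such agreement is not support for a difference.

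TGFB2 averaged 184 ± 53.7 CPM with HIV-1+LTA and 229 ± 41.9 CPM with HIV-1 (SD, n = 3 each), and was lower with HIV-1+LTA in batches 2 and 3 by 0.55 and 0.56 and higher by 0.09 in batch 1. Its log2 fold change was -0.32 (SE 0.166, 95% interval -0.68 to 0.05, adjusted p 0.389 in edgeR). LTBP3 was at 37.7 ± 3.01 CPM with HIV-1+LTA and 32.8 ± 2.33 CPM with HIV-1 (SD, n = 3 each), with a log2 fold change of 0.21 (SE 0.0771, adjusted p 0.254 in edgeR). TGFB1, TGFB3, TGFBR1, TGFBR2, LTBP1 and LTBP2 lay between -0.08 and 0.12, each with an interval that included 0. The 10 genes thus showed 3 at an unadjusted p below 0.05 in edgeR, where 15.4% of all genes were, and 0 called (0% of all genes). DESeq2 called LTBP4 alone of the 10 (1.22% of all genes), and that call was lost in 10 of 12 refits without a library or a batch, its log2 fold change running from 0.27 without HIV-1+LTA replicate 3 to 0.57 without HIV-1+LTA replicate 1. Without HIV-1+LTA replicate 1, edgeR called 4 of the 10 (14.6% of all genes), with TGFBR3 at 0.49, LTBP3 at 0.32 and LTBP4 at 0.57 higher and TGFB2 at -0.64 lower. Without batch 1 the same 4 were called (9.69% of all genes), and with every gene with any count kept TGFB2, TGFBR3 and LTBP4 were (4.02% of all genes). In this comparison too TGFB2 was the 1 gene of the 10 called for a difference of batch 1 from batches 2 and 3, by 0.65 (SE 0.0914, adjusted p 0.0236 in edgeR; 0.254% of all genes), and DESeq2 called it alone as well (0.515% of all genes).

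For the virus without LTA, set against PBS, none of the 10 genes was called. edgeR with the block called 0 of 10 and 0% of all genes, DESeq2 with the block 0 of 10 and 0.015% of all genes, and 1 of the 10 had an unadjusted p below 0.05 in edgeR, as did 4.21% of all genes. That gene was TGFBR1, at 221, 240.3 and 211 CPM with HIV-1 against 228, 289.5 and 253 CPM with PBS, with a log2 fold change of -0.20 (SE 0.0722, unadjusted p 0.0198, adjusted p 0.946). HIV-1 was below PBS in 3 of 3 batches for TGFBR1, by 0.04, 0.27 and 0.26 in log2 CPM, and the groups overlapped. TGFB2 had 222, 274 and 190.4 CPM with HIV-1 against 209, 359 and 255 CPM with PBS, with a log2 fold change of -0.26 (SE 0.165, 95% interval -0.63 to 0.10). In batches 2 and 3 the HIV-1 libraries therefore lay between HIV-1+LTA and PBS for TGFB2, as the plot of levels by library shows. LTBP4 was at 0.12 (95% interval -0.14 to 0.37), with within-batch differences of 0.07, 0.00320 and 0.33. The remaining genes had log2 fold changes from -0.12 for TGFBR3 to 0.07 for TGFBR2, and their intervals included 0. Without batch 1, edgeR called TGFB2 lower at -0.41 (adjusted p 0.0362; 0.0309% of all genes), and DESeq2 called TGFB2 at -0.42 and TGFBR1 at -0.28 (0.241% of all genes), while keeping every gene with any count called none of the 10 in edgeR (0.119% of all genes). No gene of the 10 was called for a difference of batch 1 from batches 2 and 3 in edgeR (0.0062% of all genes).

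The largest differences of these genes were between batches. In edgeR, 8 of the 10 genes differed between batch 3 and the mean of batches 1 and 2, against 71.2% of all genes, so the share called is near that of the whole table. DESeq2 called 7 of the 10, the same genes without TGFB2, against 55.7% of all genes. TGFBR3 was higher in batch 3, with 16.5 to 21.2 CPM in its 3 libraries against 4.66 to 7.41 CPM in the 6 libraries of batches 1 and 2, and a log2 fold change of 1.79 (SE 0.0879, adjusted p 5.51e-09 in edgeR). LTBP1 was higher too, at 29.7 ± 5.80 CPM in batch 3 (SD, n = 3) against 10.4 to 12.9 CPM in the 6 libraries of batches 1 and 2, a log2 fold change of 1.30 (SE 0.102). LTBP4 went the other way, with 7.64 to 14.3 CPM in batch 3 against 15.7 to 29.7 CPM in batches 1 and 2, a log2 fold change of -0.93 (SE 0.106, adjusted p 6.89e-06 in edgeR). TGFBR2, at 102 to 112 CPM in batch 3 against 127 to 146 CPM (log2 fold change -0.36), and TGFB1, at 30.5 to 33.3 CPM in batch 3 against 35.6 to 40.2 CPM (-0.27), were lower without overlap. The groups of libraries overlapped for TGFB2 (-0.40), TGFBR1 (-0.16) and LTBP2 (0.22), which were called with adjusted p of 0.0266, 0.0413 and 0.0282 in edgeR. Each of these 3 calls was lost in at least 4 of 11 refits without a library or a batch. TGFB3 and LTBP3 were not called, at 0.15 (95% interval -0.19 to 0.49) and -0.05 (95% interval -0.20 to 0.09). Scaled by library size only, which moved the median of all genes to -0.17 from -0.01, LTBP3 was called lower in batch 3 at -0.22 (adjusted p 0.0231 in edgeR) and LTBP2, at 0.06 (adjusted p 0.566 in edgeR), was not called. The labels say nothing of what differed between the batches.

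**Figure D3:**
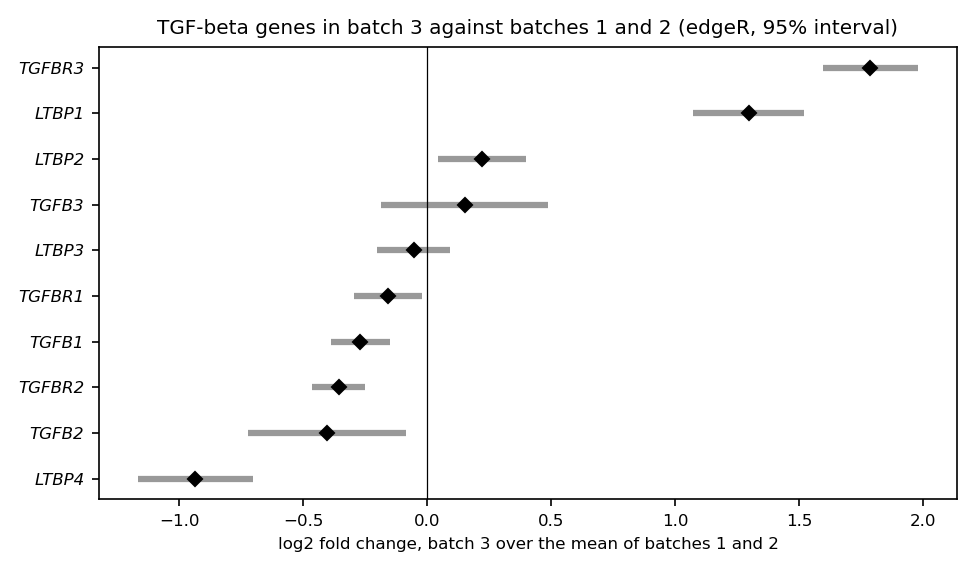
Log2 fold change of each gene in batch 3 over the mean of batches 1 and 2 (diamonds), with 95% intervals from the edgeR fit (grey bars), ordered by size. TGFBR3 and LTBP1 lie above 1, LTBP4 lies near -1, and the intervals of TGFB3 and LTBP3 include 0.

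Other genes of the pathway were counted in 7 lists with 127 genes. edgeR with the block called 0 of the 115 it tested in each treatment comparison. For HIV-1+LTA against PBS, DESeq2 with the block called 2 of 121 higher and 8 lower, against 0.59% of all genes in each direction. The matrix protein fibulin-2 (FBLN2) rose, at 59.8, 85.9 and 119 CPM with HIV-1+LTA against 52.2, 68.5 and 68.2 CPM with PBS (DESeq2 log2 fold change 0.44, SE 0.0994, adjusted p 0.00823). Of 13 matrix anchors and binders of TGF-beta tested it was the only call. Among 18 SMAD proteins and nuclear partners SMAD7, the inhibitory SMAD that TGF-beta itself induces, was the 1 call, and it fell to 30.4, 24.4 and 27.3 CPM with HIV-1+LTA, against 31.1, 34.0 and 42.9 CPM with PBS (DESeq2 log2 fold change -0.38, SE 0.112, adjusted p 0.0413). Within batches 1, 2 and 3 SMAD7 differed by -0.03, -0.48 and -0.65 in log2 CPM. SMURF2, a ubiquitin ligase that SMAD7 brings to the receptors, was the 1 call among 18 co-receptors and receptor regulators, at -0.33 (SE 0.0929) in DESeq2.

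Of 25 TGF-beta target genes 3 fell and 1 rose in that DESeq2 fit, and the other 21 were not called. The matrix proteoglycan versican (VCAN) was at -0.34, the collagen cross-linking enzyme LOX at -0.33, tenascin C (TNC) at -0.29 and the metalloproteinase inhibitor TIMP1 at 0.32 in log2 fold change. In batch 1 the differences of these 4 genes were 0.02, 0.07, 0.03 and -0.03. The list's edgeR median was -0.12, with 9 of 25 genes above 0, against a median of 0.00164 for all genes with 50.4% above 0. Of 20 activators of latent TGF-beta only the integrin subunit ITGB3 was called, lower at -0.37, and of 9 secreted antagonists of the superfamily the activin-binding FSTL3 (-0.48) and the BMP antagonist GREM1 (-0.27) were lower. None of 18 other ligands of the superfamily was called, and INHBA, the activin A subunit, had the lowest edgeR p among them at -0.44 (SE 0.126, adjusted p 0.205). The genes with the lowest edgeR p among activators and target genes were the tolloid-like protease TLL1 (-0.47, SE 0.121) and the cell cycle inhibitor CDKN1A (0.57, SE 0.152), neither called by either tool.

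For HIV-1+LTA against HIV-1, DESeq2 with the block called 4 of the 121 pathway genes higher and 5 lower, against 0.895% and 0.325% of all genes. SMAD7 had the lowest p, at 30.4, 24.4 and 27.3 CPM with HIV-1+LTA against 32.8, 39.7 and 49.2 CPM with HIV-1 (log2 fold change -0.54, SE 0.112, adjusted p 0.00097), and the groups did not overlap. The integrin subunit ITGB8, whose complex with the alpha v subunit frees latent TGF-beta, rose by 0.69 (SE 0.172), to 6.58, 8.56 and 4.10 CPM with HIV-1+LTA, against 5.55, 4.28 and 2.32 CPM with HIV-1. The TGF-beta co-receptor CD109 (0.35), the endocytic adaptor DAB2 (0.23) and FBLN2 (0.44) rose as well. The stress phosphatase subunit PPP1R15A (-0.30), SMURF2 (-0.31), the transcription factor SNAI2 (-0.40) and FSTL3 (-0.46) fell. In batch 1 the differences of these 9 genes ran from -0.17 for FSTL3 to 0.24 for ITGB8. Among target genes the cytokine IL11 had the lowest edgeR p (-0.68, SE 0.138) and was not called by DESeq2 (adjusted p 0.0666). Among other superfamily ligands INHBA again had the lowest edgeR p (-0.47, SE 0.127), with no call in that list.

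For HIV-1 against PBS none of the 121 pathway genes was called by DESeq2, and 0 of 115 by edgeR. The lowest edgeR p in each list belonged to DAB2 (-0.22, SE 0.0499, unadjusted p 0.000962), BHLHE40 (0.30, SE 0.105), MSTN, which encodes myostatin (-0.31, SE 0.114), CHRD (-1.27, SE 0.49, at a mean of 0.178 CPM), the coactivator CREBBP (0.10, SE 0.0475), the LTBP1-cleaving protease BMP1 (0.13, SE 0.0671) and EMILIN1 (0.60, SE 0.363, at 0.355 CPM). DAB2, at 408, 402 and 506 CPM with HIV-1 against 467, 459.7 and 611 CPM with PBS, was lower with HIV-1 in 3 of 3 batches, and its DESeq2 adjusted p was 0.0925. The HIV-1 libraries are also those that DAB2 was compared with in HIV-1+LTA against HIV-1, where it was called higher.

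**Figure D4:**
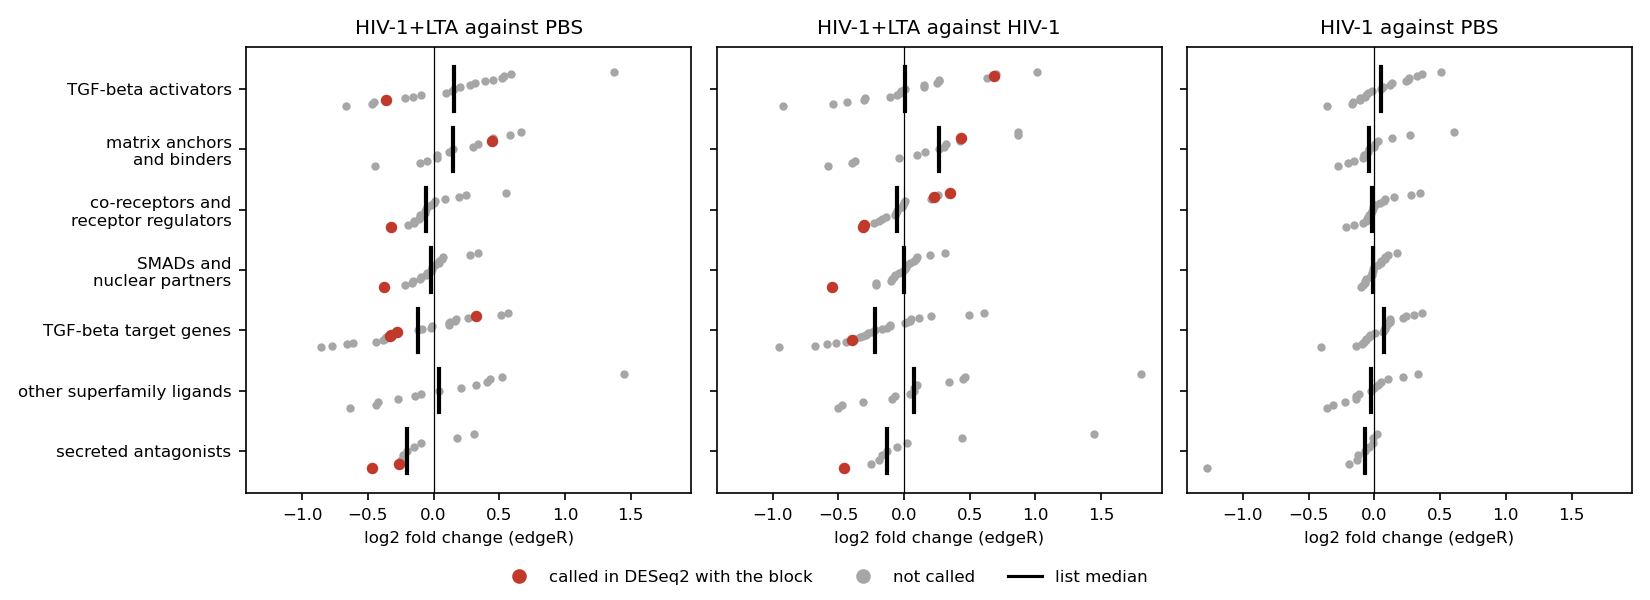
Log2 fold change (edgeR with the block) of the pathway genes in each of 7 lists for the comparisons of HIV-1+LTA with PBS, HIV-1+LTA with HIV-1 and HIV-1 with PBS; each point is a gene, red points are genes that DESeq2 with the block called, and black lines are list medians. The 10 red points for HIV-1+LTA against PBS are 2 above and 8 below 0, and there is no red point for HIV-1 against PBS.

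The genes whose pattern was most like that of LTBP4, once each batch was centred, were CD4, PLXNB2 (a semaphorin receptor) and GRN (the growth factor progranulin). Their root mean square differences from LTBP4 in batch-centred log2 CPM were 0.0527, 0.0556 and 0.0586 over 9 libraries, the lowest of 9319 genes of at least 10 CPM, whereas the nearest of the other 9 genes described here was LTBP3 at 0.153. GRN had 166, 230.1 and 139 CPM in HIV-1+LTA replicates 1, 2 and 3, against 142, 170.1 and 78.9 CPM with PBS. PLXNB2 had 81.7, 115 and 52.6 CPM with HIV-1+LTA, against 73.4, 80.3 and 32.4 CPM with PBS. As with LTBP4, the batch 1 difference was the smallest and batch 3 had the lowest levels. CD4, the T cell and macrophage receptor that HIV-1 uses for entry, had 13.9, 18.2 and 2.43 CPM with HIV-1+LTA, 14.1, 12.9 and 1.505 CPM with HIV-1, and 13.5, 12.8 and 1.36 CPM with PBS. CD4 is 1 of 8 macrophage and lymphocyte markers, the only one above 1 CPM, and the list summed to 2.93 to 19.6 CPM with HIV-1+LTA, 2.08 to 15.4 CPM with HIV-1 and 1.86 to 14.9 CPM with PBS. The pan-leukocyte marker PTPRC was at 0.504 CPM on average, and CD3E and CD163 had 6 counts and 1 count over all 9 libraries.

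ChIP-seq peaks were deposited for HIV-1-treated cells, with no antibody given in the labels. The title of that sample names Lx2 cells and its cell line label reads Lx5, so which cells the peaks come from is uncertain. None of the 166 peaks lay in any of the 10 genes, and the nearest to each ran from 504 kb away for TGFB1 to 35270 kb away for TGFB2. The list therefore gives no position to set beside the levels of these genes.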

How the data were processed

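The submitters' processing notes name, for RNA-seq, fastp, STAR, SAMtools and HTSeq, for ChIP-seq Bowtie2, bedtools and deepTools, and the build hg19; versions, strand setting and peak threshold are not given in the sources used here. For 9 libraries the authors deposited unnormalised read counts by gene symbol (50.6 to 90.6 M counts each) and a peak list of positions and names. A deposited DESeq2 table holds, per gene, a mean signal (normalised counts), a log2 fold change with its SE, a Wald score, and p-values. Its header gives no contrast; all 19990 of its deposited log2 fold changes lay within 0.01 of a DESeq2 fit of HIV-1+LTA against PBS with batch and group.

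Tests used edgeR 4.0.16 (quasi-likelihood, TMM, filterByExpr, 16117 genes kept of 35303) in 1 fit of all 9 libraries with group and batch, Benjamini-Hochberg adjusted over all genes. The DESeq2 1.42.0 fit with the same terms, on genes with at least 10 counts, and limma-voom (limma 3.58.1) were alternatives, as were different scalings, different low-count filters, fits to just the compared groups, no block, and leaving out each library or batch. DESeq2 gave no adjusted p to 7751 of its 19990 genes for HIV-1+LTA against PBS and to 6589 for HIV-1+LTA against HIV-1. They could not be called but are in the denominators of its shares of all genes, which are therefore lower than among genes with an adjusted p. A batch 1 by treatment term was added after seeing the data. CPM uses TMM-scaled library sizes; log2 CPM has a prior count of 2; SE in edgeR is the log2 fold change over the root of F. The replicate number is the batch in the labels, and the libraries were paired by it. Over 9319 genes of at least 10 CPM, deviations from group means correlated at 0.817 to 0.983 between libraries of the same number. Between different numbers they correlated at up to 0.894. With batch 3 far apart, libraries of batches 1 and 2 correlate whether paired or not, so the range cannot show pairing there. In these batches HIV-1 and PBS correlated at 0.946 and 0.943 within a number, against 0.831 and 0.833 across. HIV-1+LTA replicate 2 correlated at 0.866 with HIV-1 replicate 2 but 0.894 with HIV-1 replicate 1. Its values with PBS (0.878 and 0.873), and those of HIV-1+LTA replicate 1, were higher within the number. No libraries were copies, the lowest chi-square over degrees of freedom among 36 pairs being 4.87, for HIV-1+LTA replicate 1 and HIV-1 replicate 1. HIV-1+LTA replicate 1 and PBS replicate 1 were at 7.57. In batch 2 HIV-1+LTA was at 83.0 from HIV-1 and 94.3 from PBS, and in batch 3 at 60.4 and 63.4. Genes named from the pathway lists are up to 4 called in DESeq2 per list and the 1 with the lowest edgeR p; the nearest genes are the 3 with the smallest difference from the gene with the lowest p. Gene lengths come from GENCODE on GRCh37 and upstream windows from RefSeq (GRCh38.p14), where all 10 symbols matched; 1 exon overlap is not reported here. On counts simulated with the dispersions fitted to these data, the check required only that median estimated fold changes lay near those set. It put no limit on false or missed calls. The 10 genes, the lists and the tests were chosen with earlier results of these data known, so no count over them is independent support.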

Additional observations from a re-analysis of the deposited data

Results flagged for a closer look

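TGFB2, a ligand, differed between batches in its response, by a test of the difference itself. For HIV-1+LTA against PBS its log2 fold change was higher in batch 1 than in batches 2 and 3 by 1.14 (SE 0.0914, adjusted p 0.000292 in edgeR), and for HIV-1+LTA against HIV-1 by 0.65 (SE 0.0914, adjusted p 0.0236 in edgeR). Both use the same HIV-1+LTA libraries, batch 1 has 1 library of each treatment, and batch 1 was singled out after its values were seen. The small difference in batch 1 is not particular to TGFB2. Over genes of at least 10 CPM, chi-square over degrees of freedom between HIV-1+LTA and HIV-1 was 4.87 in batch 1. It was 83.0 in batch 2 and 60.4 in batch 3, and the cause was not tested.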

How the results depend on the processing

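In edgeR with the replicate block, none of the 10 genes was called in a treatment comparison, and this held without the block (0 called in each), in limma-voom, with DESeq2 size factors, with library size only, with genes averaging 10 CPM or more, and in a fit of just the groups compared. The replicate block changed no call in edgeR; without it the log2 fold change of HIV-1+LTA against PBS was 0.49 for LTBP4 (SE 0.435) and -0.58 for TGFB2 (SE 0.272). DESeq2 with the block called 1 gene, LTBP4, in each HIV-1+LTA comparison. With every gene that had a count kept, edgeR called 3 of the 10 for HIV-1+LTA against HIV-1 (TGFB2, TGFBR3 and LTBP4; 1016 of all genes, against 0 with the filter) and 4 for HIV-1+LTA against PBS (TGFB2, TGFBR1, LTBP3 and LTBP4; 1045 of all genes, against 0); the cause was not tested. For HIV-1 against PBS that setting called 30 of all genes. With library size only, the sign turned for TGFB1 and LTBP1 in HIV-1 against PBS (0.0244 and 0.0149), TGFBR1 in HIV-1+LTA against HIV-1 (0.0017), TGFB3 in HIV-1+LTA against PBS (0.0378) and TGFB3 in batch 3 against batches 1 and 2 (-0.0079); with at least 10 CPM it turned for TGFB1 in HIV-1 against PBS (0.006). None of these was called. For batch 3, library size only also ended the call of LTBP2 (0.06) and added LTBP3 (-0.2157), and LTBP2 was not called with at least 10 CPM (0.1728) or with batches 1 and 2 together (0.216). For batch 3 against batches 1 and 2, 6 of the 10 were called with at least 10 CPM, of the 8 that setting tests. That setting called 7422 of the 9321 genes it tested, and the main fit 11478 of 16117.

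With 1 library or batch left out, the number of the 10 genes called ran from 0 to 5 for HIV-1+LTA over PBS and from 0 to 4 for HIV-1+LTA over HIV-1, in edgeR and in DESeq2 alike. For HIV-1 over PBS it ran from 0 to 1 in edgeR and from 0 to 2 in DESeq2, whose refits were chosen after seeing the data. For batch 3 against batches 1 and 2 it ran from 5 to 8 in either tool. The main fits of that comparison called 71.2% of all genes in edgeR and 55.7% in DESeq2. The shares in its refits are not given here. The calls of up to 5 genes came without HIV-1+LTA replicate 1 or without batch 1. In those 2 refits edgeR also called 16.2% and 10.7% of all genes for HIV-1+LTA over PBS. For HIV-1+LTA over HIV-1 it called 14.6% and 9.69%. The shares of all genes in the DESeq2 refits of these comparisons are not given here. Uncalled genes near 0 changed sign in these refits. For HIV-1 against PBS, TGFB1 ran from -0.046 to 0.0548, TGFB3 from -0.0826 to 0.1337, LTBP1 from -0.0942 to 0.1172, LTBP2 from -0.0985 to 0.116, LTBP3 from -0.0045 to 0.1096 and LTBP4 from -0.0015 to 0.2308. For HIV-1+LTA against HIV-1, TGFB1 ran from -0.0097 to 0.1206, TGFB3 from -0.2419 to 0.0429, TGFBR1 from -0.1234 to 0.0491, TGFBR2 from -0.0193 to 0.0882, LTBP1 from -0.0891 to 0.2963 and LTBP2 from -0.0306 to 0.1457. For HIV-1+LTA against PBS, TGFB3 ran from -0.2176 to 0.1026, LTBP1 from -0.0902 to 0.318 and LTBP2 from -0.0101 to 0.1965. TGFB3 alone of the 10 genes had a mean below 5 CPM, and whether depth limited the calls was not tested.

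The term for batch 1, with alternatives chosen after seeing the data, called TGFB2 in 12 of 12 of them for HIV-1+LTA over PBS (1.05 to 1.15). In HIV-1+LTA over HIV-1 TGFB2 was also called in 12 of 12 (0.59 to 0.66). All 12 kept the same batch 1 libraries, so they cannot show whether the result rests on 1 of those. For HIV-1 over PBS TGFB2 was called in 1 of 12, with any count kept (0.49, 1 of the 10 genes and 0.115% of all genes). For HIV-1+LTA over PBS 3 of the 10 genes were called with any count kept (2.04% of all genes) and without HIV-1+LTA replicate 2 (1.82% of all genes). TGFBR1 and LTBP1 were the added ones, against 1 gene called in each other refit. All genes called for HIV-1+LTA over PBS numbered 134, against 515 with any count kept; for HIV-1+LTA over HIV-1 they numbered 41, against 369 with any count kept and 103 in DESeq2. With 1 library of batch 2 or 3 left out these ran from 46 to 725 and from 31 to 511, and LTBP4 in HIV-1 over PBS, uncalled, ran from -0.2845 to 0.0782.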
